A study of Mus musculus with 4 samples.

Results

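Rxra, Ppard and Ncoa2 encode 2 nuclear receptors and a coactivator of nuclear receptors, and are described here by the Nrf2 chromatin immunoprecipitation followed by sequencing (ChIP-seq) signal listed at them in mouse esophagus. They were taken by gene name, as 3 of the 1940 genes in the deposited table, and hold 5 active regions (called intervals merged between libraries) made of 6 called intervals. The study used C57BL/6 mice of 3 genotypes, wild-type, Nrf2KO and Keap1KO, and an antibody against Nrf2 from Santa Cruz, with 1 ChIP library per genotype, and also sequenced a pooled input DNA that was not analysed here. Nrf2KO carries a knockout of Nrf2 (gene Nfe2l2) and Keap1KO a knockout of Keap1, and all libraries came from the same tissue and strain. The sources used here give neither the ages, nor the number of animals behind a library, nor how each knockout was made. ChIP heights do not measure expression, so the tissue label was not checked against marker genes.

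Nrf2 is a transcription factor that binds antioxidant response elements together with small Maf proteins, and Keap1 is the adaptor that targets it for degradation when oxidative stress is low. Nuclear receptors are transcription factors, many of them switched by small lipophilic ligands. RXRα, the product of Rxra, binds DNA as the shared partner of many other receptors, among them the retinoic acid, thyroid hormone, vitamin D and peroxisome proliferator-activated receptors. PPARδ, the product of Ppard, is such a partner, responds to fatty acids and is active in fatty acid oxidation and in squamous epithelia. NCOA2 (also SRC-2, GRIP1 or TIF2) is a p160 coactivator that ligand-bound receptors recruit and that in turn recruits histone acetyltransferases.

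All intervals of the 3 genes lay inside the genes and away from their starts (mm10). Rxra (GeneID 20181, chromosome 2, 27677201 to 27763319, plus strand) had Keap1KO intervals at position 27679952, 2751 bp into the gene, and at position 27740384, 63183 bp into it. Its wild-type interval was at position 27740480. Ppard (GeneID 19015, chromosome 17, 28232754 to 28301469, plus strand) had a single Keap1KO interval at position 28236848, 4094 bp into the gene. Ncoa2 (GeneID 17978, chromosome 1, 13139159 to 13374083, minus strand) had Keap1KO intervals at positions 13188656 and 13204704, which are 185427 and 169379 bp from its start. The table says "in gene" for each without separating exons from introns, and at each of the 6 positions the RefSeq gene table lists no other gene.

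The stretches just before the starts of Rxra and Ppard are shown because the called intervals lay downstream of them, and to mark where the core of the Nrf2 element occurs. The core searched was TGACNNNGC, on both strands, in the RefSeq promoter sequences of GRCm38.p6. A promoter sequence was found for 2 of the 3 genes (Rxra and Ppard). Bases are in lower case, and capitals mark a match. The sequence before the start of Rxra, chr2:27676951-27677200, is 250 bases of the plus strand and ends at the base before the start. That of Ppard, chr17:28232504-28232758, is 255 bases of the plus strand and runs to the end of the match, 5 bases from the start on.
Rxra: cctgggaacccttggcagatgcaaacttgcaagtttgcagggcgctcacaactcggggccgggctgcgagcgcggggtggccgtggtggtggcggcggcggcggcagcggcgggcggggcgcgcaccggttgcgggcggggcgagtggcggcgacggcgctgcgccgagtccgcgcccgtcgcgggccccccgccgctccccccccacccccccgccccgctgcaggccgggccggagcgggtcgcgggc
Ppard: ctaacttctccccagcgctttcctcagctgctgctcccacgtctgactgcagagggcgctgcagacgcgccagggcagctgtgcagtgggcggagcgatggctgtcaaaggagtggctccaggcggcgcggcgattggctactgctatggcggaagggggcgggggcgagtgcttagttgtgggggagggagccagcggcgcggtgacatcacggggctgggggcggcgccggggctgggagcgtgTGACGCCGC
The 300-base window of Ppard, from 250 bases before the start to 50 after, held 1 match, TGACGCCGC on the plus strand, beginning 4 bases before the start. Neither of the windows listed for Rxra, which has a further start with a window beginning at 27709042, held a match. The core occurred in 12.4% of 32851 windows of this length. The interval of Ppard was listed 4094 bp from its start and the nearest of Rxra 2751 bp, so the printed bases are not the bases under the intervals. A match in a window is a description of its letters only.

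**Figure D1:**
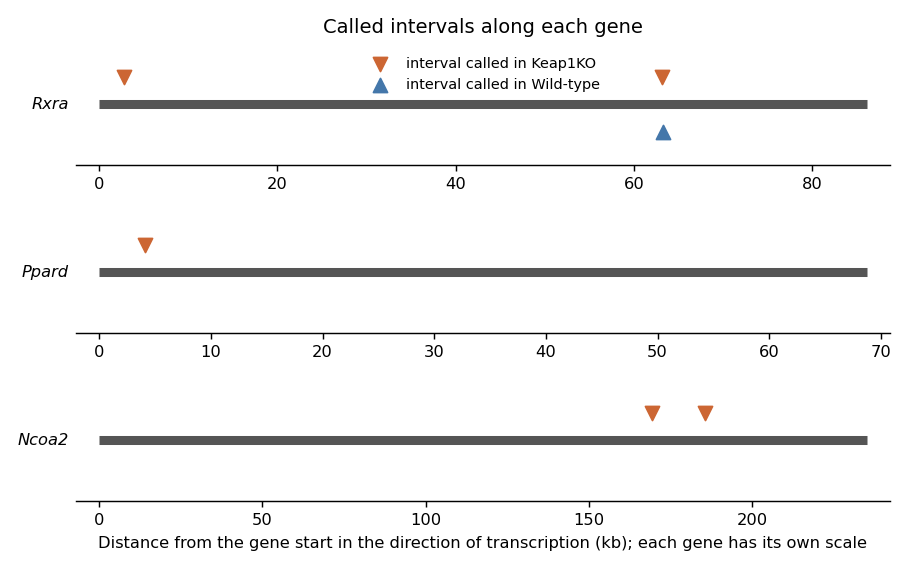
Called intervals along Rxra, Ppard and Ncoa2, drawn as distance from the gene start in kb with a scale for each gene; grey bars are the gene bodies and triangles are intervals called in Keap1KO (above) or wild-type (below). Rxra has intervals at 2.75 and 63.2 kb in Keap1KO and at 63.3 kb in wild-type, Ppard has 1 at 4.09 kb, and those of Ncoa2 lie at 169 and 185 kb.

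By position within the gene, the intervals formed 2 kinds of place. The first interval of Rxra and that of Ppard lay at 3.19% and 5.96% of the gene's length. The second place in Rxra (73.4% of the length in Keap1KO and 73.5% in wild-type) and both intervals of Ncoa2 (72.1% and 78.9%) lay in the last part of the gene. Of all gene and interval pairs listed, 51.0% were in the gene. The Rxra regions were 60.4 kb apart and those of Ncoa2 16.0 kb apart. No other interval listed near a gene was close to any of them: the nearest was 785 kb away for Rxra (at Ralgds), 211 kb for Ppard (at Fkbp5) and 3453 kb for Ncoa2 (at Tceb1), and each interval was listed under its gene alone. All 3 genes are long, with 86.1 kb for Rxra, 68.7 kb for Ppard and 235 kb for Ncoa2, against a median of 25.6 kb over the genes of the table. The median length was 24.1 kb for genes with 1 region and 43.3 kb for genes with 2 or more.

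Rxra, the heterodimer partner, had an average peak height of 63.5 in Keap1KO, of 13.5 in wild-type and of 3 in Nrf2KO. The height is the authors' signal per gene, averaged over its active regions, with no stated unit or scaling between libraries. Keap1KO was the tallest library and Nrf2KO the lowest, and Rxra was listed with calls in both wild-type and Keap1KO. Ppard, the fatty acid receptor, had a height of 49 in Keap1KO, against 14 in wild-type and 10 in Nrf2KO. Its wild-type height was thus near that of Rxra, while its height without Nrf2 was the highest of the 3 genes. Ncoa2, the coactivator, reached 17.5 in Keap1KO, against 5.5 in wild-type and 5 in Nrf2KO, with wild-type and Nrf2KO nearly level.

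**Figure D2:**
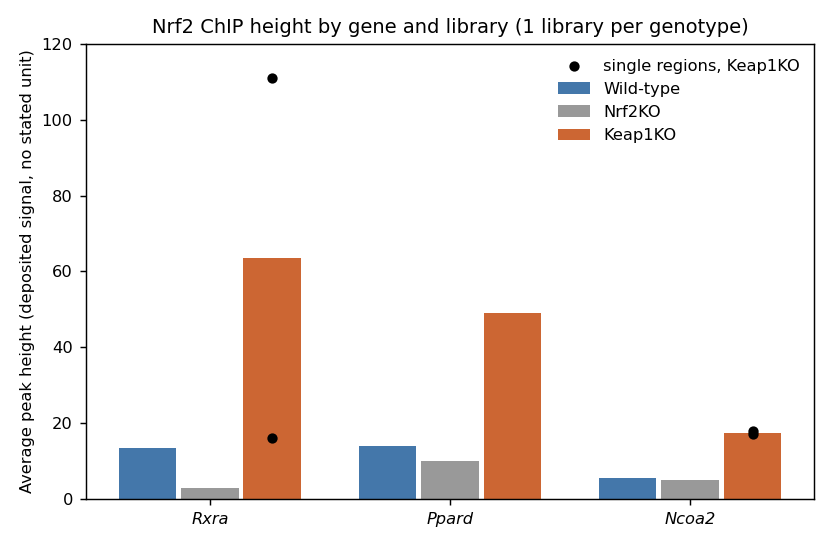
Average peak height (deposited signal, no stated unit) of Rxra, Ppard and Ncoa2 in the 3 ChIP libraries, 1 library per bar and hence no error bars; black points are the heights of the single regions in Keap1KO for the 2 genes with 2 regions. The Keap1KO bar of Rxra (63.5) is the mean of regions at 111 and 16, and that of Ncoa2 (17.5) of regions at 18 and 17.

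Each genotype has a single library, so the differences have no replicate check and no test between genotypes was possible. Every gene of the table has a called interval in wild-type or Keap1KO, which selects heights of the calling library upwards. A Keap1KO call was listed for 99.1% of the genes and a wild-type call for 4.18%, so the selection is mostly on Keap1KO heights. Ppard and Ncoa2 were called in Keap1KO alone, which selects their ratios of Keap1KO to wild-type and to Nrf2KO upwards. Without a known depth per library a height has no counting interval. Whether neighbours in the order of heights differ cannot be told. In wild-type the order was Ppard, Rxra, Ncoa2, in Nrf2KO it was Ppard, Ncoa2, Rxra, and in Keap1KO it was Rxra, Ppard, Ncoa2.

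Rank within a library is not moved by a scale factor between libraries. In Keap1KO, 38 of the 1940 genes were taller than Rxra, 70 than Ppard and 1005 than Ncoa2. In wild-type 42 were taller than Rxra, 36 than Ppard and 956 than Ncoa2. In Nrf2KO 1328 were taller than Rxra, 125 than Ppard and 820 than Ncoa2. Rxra was therefore among the tallest genes in both libraries that carry Nrf2 and in the lower part of the table without it, Ppard was high in all 3 libraries, and Ncoa2 stood near the middle in each. The median height over the table was 18 in Keap1KO, against 5.5 in wild-type and 5 in Nrf2KO.

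The Keap1KO height was above wild-type at all 3 genes. With a pseudocount of 1 added to each height, it was 4.45-fold above wild-type at Rxra (log2 ratio 2.15), 3.33-fold at Ppard (1.74) and 2.85-fold at Ncoa2 (1.51). All 3 passed a descriptive rule of 2-fold, which 86.4% of the table's genes also did, so this count is close to the background. The median log2 ratio over the table was 1.70, and 493 genes had a larger ratio than Rxra, 917 than Ppard and 1170 than Ncoa2. A call in Keap1KO, which all 3 genes had, was listed for 99.1% of the genes, so entry to the table itself favours tall Keap1KO heights.

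Without Nrf2 the antibody gives its background, and the 3 genes differed in how far wild-type stood above it. Rxra was 3.62-fold higher in wild-type than in Nrf2KO (log2 ratio 1.86), Ppard 1.36-fold (0.45) and Ncoa2 1.08-fold (0.12). Rxra alone of the 3 passed the 2-fold rule, met by 17.5% of the genes, and 73 genes had a larger ratio. Over the table the median log2 ratio was 0.15, with 669 genes above Ppard and 997 above Ncoa2. Rxra was also the only one of the 3 with a wild-type call, which 4.18% of the genes had. None of the 3 was called in Nrf2KO, where 0% of the genes were.

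Keap1KO was 16.1-fold above Nrf2KO at Rxra (log2 ratio 4.01), 4.55-fold at Ppard (2.18) and 3.08-fold at Ncoa2 (1.62). All 3 passed the 2-fold rule, as did 83.3% of the genes. The median log2 ratio over the table was 1.83, and 47 genes had a larger ratio than Rxra, 690 than Ppard and 1157 than Ncoa2. The 3 comparisons share libraries and are not separate evidence.

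**Figure D3:**
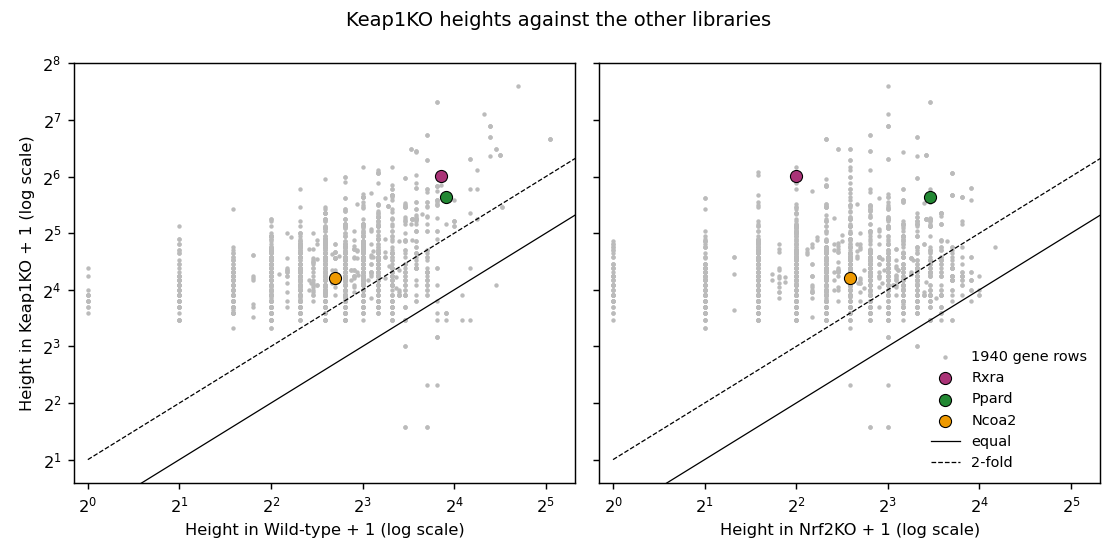
Height in Keap1KO plus 1 against the height in wild-type plus 1 (left) and in Nrf2KO plus 1 (right), on log scales; each grey point is 1 of 1940 genes, coloured points are Rxra, Ppard and Ncoa2, the solid line marks equal heights and the dashed line 2-fold. In the right panel Rxra (3 in Nrf2KO, 63.5 in Keap1KO) lies well left of Ppard (10 and 49), while in the left panel both lie close together (13.5 and 14 in wild-type).

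Differences between genes in a log2 ratio cancel a scale factor between the libraries, apart from the pseudocount. Between Rxra and Ppard the log2 ratio of wild-type to Nrf2KO differed by 1.41 and that of Keap1KO to Nrf2KO by 1.83, each larger at Rxra. The ratio of Keap1KO to wild-type differed by 0.42 in the same direction. Between Ppard and Ncoa2 the 3 differences were 0.33, 0.56 and 0.23, each larger at Ppard. In these averages the gap between the receptors thus lay mainly in the Nrf2KO height. The average covers 2 regions at Rxra and 1 at Ppard. In wild-type and Nrf2KO the heights of the single Rxra regions are not known, so where the gap lies region by region cannot be told.

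The average over regions hid a tall region in Rxra. The table also gives a peak value, the height of a gene's highest region in the library it names, which for the 3 genes is Keap1KO. It was 111 for Rxra, 49 for Ppard and 18 for Ncoa2. The other region of Rxra therefore had a height of 16 in Keap1KO, and the other region of Ncoa2 17. At all 198 genes with 2 regions this split gave a whole height between 0 and that of the taller region (within 0.02). Whole values follow by arithmetic where the region heights are whole, so that part is no check. The split equalled the height listed for a region alone under another gene in 50 of 50 cases, counted per gene, so shared regions can repeat.

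A height of 111 was exceeded by the peak value of 14 genes, in 7 groups that share no interval with each other. These were Txn1 (194, thioredoxin), Srxn1 (158, sulfiredoxin) with its neighbour Scrt2, Gstp1 and Gstp2 (156, glutathione transferases), Txnrd1 (139, thioredoxin reductase) with Eid3, Sh2d6 (136), Ftl1 (118, ferritin light chain) with Bax and Gys1, and Neat1 (117, a long noncoding RNA) with Frmd8 and Gm9783. These genes were named after their values were seen. A peak value above that of Ppard was listed for 88 genes and above that of Ncoa2 for 936, against a median of 18.

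The regions of Rxra were 6.59-fold apart in Keap1KO and those of Ncoa2 1.06-fold, with the same pseudocount. Over the 198 genes with 2 regions the median was 1.43-fold, and 5 had a larger ratio than Rxra while 19 had a smaller ratio than Ncoa2. Which of the Rxra regions is the tall one is not given by the table. For wild-type and Nrf2KO only sums over both regions can be had, 27 and 6 at Rxra and 11 and 10 at Ncoa2. Since no height is below 0, the tall Rxra region was at least 4-fold above wild-type and at least 16.0-fold above Nrf2KO wherever the other libraries' signal lay. The lower Rxra region was at least 2.43-fold above Nrf2KO, and no direction against wild-type follows (lowest possible fold 0.607). The taller Ncoa2 region was at least 1.58-fold above wild-type and 1.73-fold above Nrf2KO.

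**Figure D4:**
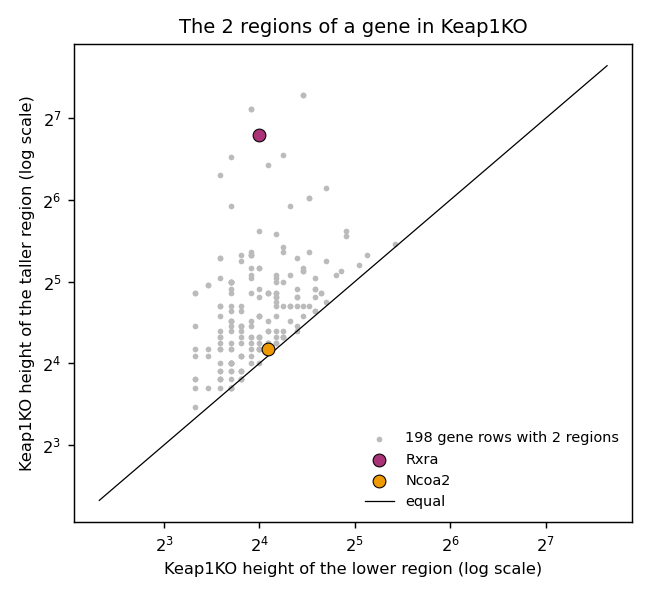
Keap1KO height of the taller region against that of the lower region, on log scales, for the 198 genes listed with 2 active regions; the line marks equal heights and coloured points are Rxra and Ncoa2. Rxra (111 and 16) is far above the line and Ncoa2 (18 and 17) next to it.

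The wild-type call of Rxra fell at one of its Keap1KO places. The wild-type interval lay 96 bp from the Keap1KO interval in the last part of the gene, and the authors' merging made them 1 active region. It lay 60.5 kb from the other Keap1KO interval, 2751 bp into the gene, which had no wild-type call. Among genes with 1 region and a wild-type call, the called wild-type height ran from 10 to 32 with a median of 14. Ppard, with a wild-type height of 14, had no wild-type call.

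Among genes of like layout, Rxra was near the top in wild-type and Keap1KO and in the lower part in Nrf2KO, while the place of Ncoa2 depended on the set and the library. Of the 198 genes with 2 regions, none was taller than Rxra in wild-type, 4 were taller in Keap1KO and 161 in Nrf2KO, and 2 had a larger ratio of wild-type to Nrf2KO. In the same set 131 genes were taller than Ncoa2 in Keap1KO, against 100 in wild-type and 84 in Nrf2KO. Of the 414 genes with every interval in the gene and beyond 20 kb from the start, 199 were taller than Ncoa2 in Keap1KO, against 126 in wild-type and 78 in Nrf2KO, and 243 had a larger ratio of wild-type to Nrf2KO. Of the 257 genes with 1 region 1 to 20 kb into the gene, 9 were taller than Ppard in Keap1KO, against 3 in wild-type and 4 in Nrf2KO. In that set 155 had a larger ratio of Keap1KO to wild-type than Ppard.

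The genes most like each of the 3 were found by the distance of log2 heights (plus 1) over the 3 libraries, leaving out genes that share an interval with it. From here on, 3 heights in a row are those of the wild-type, Nrf2KO and Keap1KO library. For Rxra the most alike were Dhx57 (heights of 13, 3.5 and 52.5, distance 0.32), Gclc, the catalytic subunit of glutamate-cysteine ligase (13.5, 4 and 56.5, distance 0.36), and Creld1 (13, 4 and 56, distance 0.37). Creld1 shares its interval with Il17rc and Prrt3. For Ppard the most alike were Trim16 (17, 10 and 54, distance 0.30) and Mvp with Pagr1a, which share an interval (13, 8 and 47, distance 0.31). That interval is also listed under Prrt2. For Ncoa2 the most alike were Vmp1 (6, 5 and 17.7, distance 0.11), D030040B21Rik and Gm14378, both with 6, 5 and 18 and a distance of 0.11. Genes with equal heights tie in distance. Other genes also had the heights of D030040B21Rik and Gm14378, of Creld1, and of Mvp and Pagr1a, so these names are picks among ties. The closer neighbours of Ncoa2 go with a height that many genes of the table have.

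Around the 3 genes, 9 of 49 nuclear receptor genes had a row (18.4%), against 7.67% of protein-coding genes, and 7 of 47 without Rxra and Ppard (14.9%). The median gene length of the list was 47.1 kb, against 17.1 kb over protein-coding genes, and the part of length in this share was not tested. Of 14 receptors that pair with RXR, a subset drawn up after the values were seen, 4 had a row. These were Ppard, Pparg, the PPAR of fat cells, and the thyroid hormone receptors Thra and Thrb. Rxra was the only 1 of 3 retinoid X receptor genes with a row.

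Rxra and Ppard were the tallest of the listed receptors in Keap1KO and in wild-type. Pparg was next in Keap1KO, with heights of 6.5, 2 and 22.5 over 2 regions 104 and 119 kb into the gene. Nr3c2, the mineralocorticoid receptor, had 5, 3 and 19, and the circadian regulator Rora 4, 3 and 17. Thrb also had 4, 3 and 17. Thra and Nr1d1, a heme-binding repressor, share 1 interval with 2, 3 and 11. Nr3c1, the glucocorticoid receptor, differed from these in its Nrf2KO height, with 7, 14 and 19. All 9 were at least 2-fold higher in Keap1KO than in wild-type (86.4% of all genes), 8 were so over Nrf2KO (83.3%), and 2, Rxra and Pparg, were at least 2-fold higher in wild-type than in Nrf2KO (17.5%). Median log2 ratios of the list were 1.85, 2.17 and 0.32 in that order, against 1.70, 1.83 and 0.15 over the table.

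Of 25 coregulator genes, 6 had a row (24%), and 5 of 24 without Ncoa2 (20.8%), against 7.67% of protein-coding genes. The median gene length of this list was 83.3 kb, against 17.1 kb over protein-coding genes, and the part of length was not tested here either. Of the 3 p160 coactivators, Ncoa2 and Ncoa3 had rows, and Ncoa3 had 4, 3 and 16 at an interval beyond its end that is also listed under Sulf2. Tbl1x, which encodes a corepressor complex subunit, was just above Ncoa2 in Keap1KO, with 8, 3 and 18. The acetyltransferase genes Kat2b (3, 6 and 16) and Ep300 (4, 3 and 14) stood below Ncoa2 in Keap1KO. At Nrip1, a ligand-dependent corepressor, Nrf2KO was the highest library (7, 12 and 10). At least 2-fold higher were 5 of 6 for Keap1KO over wild-type (86.4% of all genes), 5 for Keap1KO over Nrf2KO (83.3%) and 1, Tbl1x, for wild-type over Nrf2KO (17.5%), so the first 2 counts are close to the background. Median log2 ratios were 1.55, 1.77 and 0.22, against 1.70, 1.83 and 0.15 over the table.

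**Figure D5:**
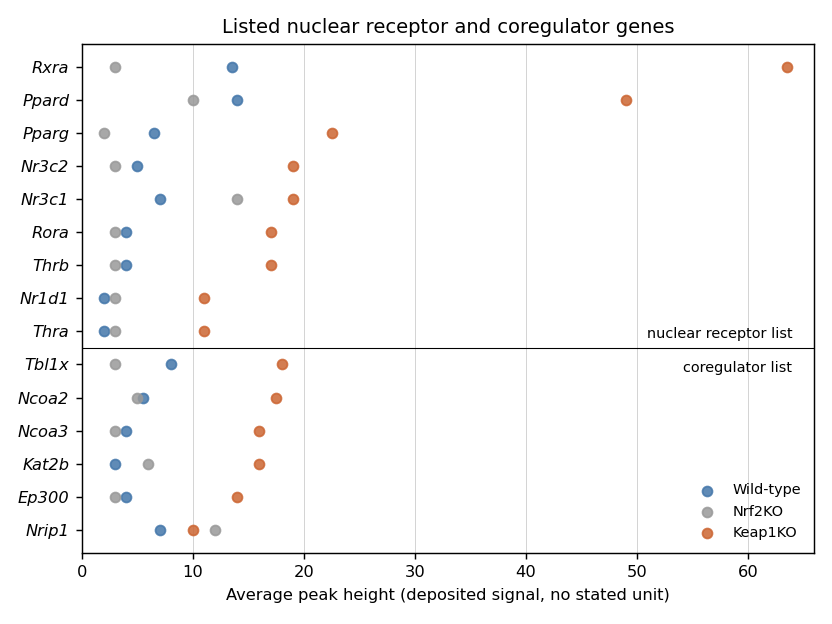
Average peak heights (deposited signal, no stated unit) of the 9 listed nuclear receptor genes and 6 coregulator genes with a row, 1 point per library. Rxra (63.5) and Ppard (49) stand apart in Keap1KO from the others, which run from 10 (Nrip1) to 22.5 (Pparg).

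Genes that act before or after the receptors were looked at in 2 further lists. Of 20 retinoid handling genes, 2 had a row (10%), against 7.67% of protein-coding genes. Adh7, an alcohol dehydrogenase that oxidises retinol, had 6, 1 and 48 at an interval upstream that is also listed under 0610031O16Rik. Aldh1a3, which makes retinoic acid, had 6, 4 and 11 at an interval beyond its end that is also listed under Lrrk1. At least 2-fold higher were 1 of the 2 in Keap1KO over wild-type (86.4% of all genes), 2 in Keap1KO over Nrf2KO (83.3%) and 1 in wild-type over Nrf2KO (17.5%).

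Of 25 PPAR target genes, 4 had a row (16%), against the same 7.67%. Cpt1a, which lets fatty acids into mitochondria, had 3.5, 7 and 20. Slc25a20, the carnitine carrier, had 3, 3 and 15 at an interval also listed under Arih2. Lpl, lipoprotein lipase, had 9, 3.5 and 18 over 2 regions and was, like Rxra, called in both wild-type and Keap1KO. Its intervals lay 4.63 to 28.4 kb from the start, in the gene and downstream of it, whereas those of Rxra were all in the gene. Cpt2 had 9, 7 and 11. At least 2-fold higher, beside the same shares of all genes, were 2 of the 4 in Keap1KO over wild-type, 3 in Keap1KO over Nrf2KO and 1, Lpl, in wild-type over Nrf2KO. These lists hold 2 and 4 genes with a row, too few to set against the background shares, the 7.67% included. The median gene length was 22.6 kb in the retinoid handling list and 22.3 kb in the PPAR target list. Over protein-coding genes it was 17.1 kb, and the part of length was not tested.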

How the data were processed

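Nrf2 ChIP-seq of mouse esophagus (wild-type, Nrf2KO, Keap1KO, 1 library each) was analysed from the deposited gene table. The submitters' processing notes name BWA, MACS2 2.1.0 and mm10, and the sources used here state no parameters or scaling. Per the file headers, the values are a signal, the authors' average peak height per gene over its active regions, the highest region's height, and flags for called intervals, which are not on a stated unit. In genes with 1 region, 100% of 5043 heights were whole numbers.

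Genes were matched by name. Log2 ratios used a pseudocount of 1 and a descriptive rule of 2-fold, with no test. The position of an interval is the gene's start moved by the listed distance along its strand. The 450 intervals listed under several genes gave 1 position each. Gene rows that share intervals are not independent. The lower region of a gene with 2 regions was computed from the mean and the highest region. The code for ratios and 2-fold counts was run on simulated heights without noise, which checks the arithmetic only. Python 3.11.15, numpy 2.4.6, pandas 2.3.3 and matplotlib 3.10.9 were used. Genes, 4 lists and alternatives were chosen with earlier results of these data known. An item of the coregulator list is not reported here and is left out of that list's counts. Named were the 3 genes, list genes with a row, and the 3 most alike genes for each. Also named were genes with a peak value above that of Rxra, genes at the nearest other intervals, and genes that share an interval with a named gene. Alternatives were pseudocounts, a filter on height, shared intervals counted once, a scaled wild-type library, stricter calls and distance limits.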

Additional observations from a re-analysis of the deposited data

How the results depend on the processing

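No paired analysis was possible because no genotype has a second library. Of 45 values under an alternative, 33 moved by at most 1.5 times, 12 moved by more and 0 changed direction. Most of the 12 are counts taken after a filter that drops genes. Such counts can only fall and cannot change direction, so the tally is no measure of how firm the results are. The ratios of Ppard and Ncoa2 were among those that moved less under every alternative run. With a pseudocount of 5, which shrinks ratios by construction, the log2 ratio of Rxra went to 1.21 for wild-type over Nrf2KO and to 3.10 for Keap1KO over Nrf2KO, and 75 genes were at least 2-fold higher in wild-type than in Nrf2KO, against 339. Among the 1026 genes of at least the median mean height, 875 were at least 2-fold higher in Keap1KO than in wild-type (85.3%). In wild-type over Nrf2KO 142 were so (13.8%), and in Keap1KO over Nrf2KO 828 (80.7%). Over all genes these shares were 86.4%, 17.5% and 83.3%, so the counts fell mainly because fewer genes were counted.

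With calls limited to at least the median called height, 5 nuclear receptor, 1 coregulator, 1 retinoid handling and 2 PPAR target genes kept a row. With an interval within 10 kb of the start, 3 nuclear receptor, 4 coregulator, 1 retinoid handling and 4 PPAR target genes did. By average height and nearest interval, Rxra and Ppard met both limits and Ncoa2 met neither. The Rxra regions were at 111 and 16 in Keap1KO. Which of them lies near the start is not known, so whether a single Rxra region meets both limits cannot be told. These limits leave 52.4% and 58.7% of all genes. A height per gene other than the average was not run for the ratios, since the highest region is given for 1 library only. Unknown depth limits every ratio between libraries.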
